A study of Mus musculus with 6 samples.

Results

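Motile cilia and axoneme genes were examined in RNA-Seq of hippocampal tissue from Phf21bΔ4/Δ4 and Phf21b+/+ mice. The genes were taken by symbol alone: a name that starts with Cfap, Dnah, Dnai, Dnaaf, Rsph, Tekt, Spag or Drc followed by a digit, or Foxj1. By this rule 75 of the 14477 genes in the table were members, namely 32 Cfap, 14 Dnah, 10 Spag, 7 Rsph, 5 Dnaaf, 3 Drc and 3 Tekt genes and Foxj1. No symbol with the Dnai prefix was in the table, and the dynein intermediate chains were listed there as Dnaic1 and Dnaic2. Phf21bΔ4/Δ4 animals are whole-body mutants made with CRISPR/Cas9 by a deletion in exon 4 of Phf21b, which encodes a histone reader protein, and Phf21b+/+ animals were their littermates. All were young adults on a C57BL/6J background and untreated. There were 3 mice per genotype with 1 library each, called KO2, KO3 and KO6 (Phf21bΔ4/Δ4 replicates 2, 3 and 6) and WT5, WT7 and WT8 (Phf21b+/+ replicates 5, 7 and 8).

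A motile cilium is built on an axoneme, a ring of doublet microtubules around a central pair. Outer and inner dynein arms on the doublets pull neighbouring doublets past each other, radial spokes and the nexin-dynein regulatory complex shape that sliding into a beat, and proteins inside the doublet wall stabilize it. In the brain, bundles of motile cilia are carried by ependymal cells, which line the ventricles and move cerebrospinal fluid, and motile cilia genes are also expressed in the choroid plexus epithelium. Neurons and astrocytes carry a single primary cilium, which lacks dynein arms and a central pair.

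Levels are CPM, read counts scaled to the size of each library, and log2 fold changes are the mean log2 CPM of Phf21bΔ4/Δ4 minus that of Phf21b+/+ mice, so that a negative value is lower in Phf21bΔ4/Δ4. The libraries held from 20495605 to 24881257 reads on genes of the table, and 1 read corresponded to between 0.0422 and 0.0476 CPM. Members had a mean CPM under 2 in 18 cases, from 2 to 10 in 31 and of 10 or more in 26, and none was at 0 reads in any mouse. Phf21b (chr15:84785381-84856049, GRCm38) was at 2.16, 3.58 and 3.88 CPM in KO2, KO3 and KO6 and at 6.51, 5.24 and 6.48 CPM in WT5, WT7 and WT8. The targeted transcript was thus lower in each Phf21bΔ4/Δ4 mouse than in each Phf21b+/+ mouse (log2 fold change -0.96, SE 0.26, FDR 0.141). Whether the replicate numbers mark litters or dissection days is not given in the sources used here.

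Promoters of several members held the core motif of RFX factors, transcription factors known for switching on cilia genes together with FOXJ1. RefSeq windows from 250 bases before to 50 bases after the start site (GRCm38.p6) were matched by symbol for 61 members. Searched on both strands, the core motif GTTGCC lay in the windows of 25 of the 61 (41.0%), in those of 15.3% of 11292 matched genes of the table and in those of 14.1% of all 27025 genes with a window. The windows of the largest decreases with at least 2 core motifs, Spag16, Dnah10 and Cfap44, are shown with core motifs of either strand in capitals, beside that of Cfap298, in which the motifs form pairs that face each other. The Spag16 window is chr1:69826720-69827019 (plus strand), the Dnah10 window chr5:124724835-124725134 (plus strand), the Cfap44 window chr16:44394549-44394848 (plus strand) and the Cfap298 window chr16:90934800-90935099 (minus strand).
Spag16: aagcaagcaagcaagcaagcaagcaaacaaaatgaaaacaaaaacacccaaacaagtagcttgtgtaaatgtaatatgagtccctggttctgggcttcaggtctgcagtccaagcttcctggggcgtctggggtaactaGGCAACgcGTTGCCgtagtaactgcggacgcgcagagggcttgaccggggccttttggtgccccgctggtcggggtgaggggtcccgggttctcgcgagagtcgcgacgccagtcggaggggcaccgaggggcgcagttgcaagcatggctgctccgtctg
Dnah10: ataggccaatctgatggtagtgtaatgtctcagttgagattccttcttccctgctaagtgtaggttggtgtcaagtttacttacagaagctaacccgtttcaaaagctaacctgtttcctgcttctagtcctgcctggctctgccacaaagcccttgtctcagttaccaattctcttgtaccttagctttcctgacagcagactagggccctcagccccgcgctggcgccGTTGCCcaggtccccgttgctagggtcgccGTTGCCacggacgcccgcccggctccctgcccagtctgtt
Cfap44: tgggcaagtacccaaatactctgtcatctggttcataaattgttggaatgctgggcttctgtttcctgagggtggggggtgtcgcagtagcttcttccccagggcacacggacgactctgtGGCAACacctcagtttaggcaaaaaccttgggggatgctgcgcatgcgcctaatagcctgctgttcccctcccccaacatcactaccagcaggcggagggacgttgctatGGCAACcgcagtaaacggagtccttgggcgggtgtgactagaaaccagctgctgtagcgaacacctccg
Cfap298: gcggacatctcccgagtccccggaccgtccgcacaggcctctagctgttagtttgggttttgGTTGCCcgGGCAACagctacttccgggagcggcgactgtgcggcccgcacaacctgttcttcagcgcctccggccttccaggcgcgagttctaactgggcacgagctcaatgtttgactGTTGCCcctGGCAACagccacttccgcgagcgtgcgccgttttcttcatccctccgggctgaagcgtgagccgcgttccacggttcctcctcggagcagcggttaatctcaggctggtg

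Counted in bases from the start site, the motifs began at -111 and -103 for Spag16, at -20 and 10 for Dnah10, at -129 and -19 for Cfap44, and at -188, -180, -69 and -60 for Cfap298. In the RFX palindrome, GTTNCC comes first and GGNAAC follows after 2 or 3 bases, where N is any base. It overlaps the core motif and was found in the window of 1 member, Cfap298 (1.64%), and of 0.596% of all genes. The pair in the Spag16 window has the reverse order, GGCAAC before GTTGCC, and was not counted. The forkhead motif TGTTTAC lay in the windows of 2 of the 61 members (3.28%) and of 4.05% of all genes. Core motifs were about as frequent in members with a log2 fold change below -1 (11 of 28, 39.3%) as in the others (14 of 33, 42.4%), a division made after the values were seen. A match of letters is a description of the window and not a site of binding. Cfap157, Cfap299, Cfap53, Cfap54, Cfap65, Cfap73, Cfap97, Dnaaf1, Dnah3, Foxj1, Rsph1, Rsph10b, Rsph4a and Spag1 were not matched.

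Foxj1, the regulator of motile cilia formation (chr11:116330704-116335399, GRCm38), was at 12.2, 6.29 and 17.1 CPM in KO2, KO3 and KO6 and at 15.2, 62.3 and 36.1 CPM in WT5, WT7 and WT8. WT7 and WT8 were above all other mice, whereas WT5 lay between KO2 and KO6, so the genotypes overlapped. Mean CPM was 11.8 ± 5.39 (SD, n = 3) in Phf21bΔ4/Δ4 animals and 37.9 ± 23.6 (SD, n = 3) in Phf21b+/+ animals, and the log2 fold change was -1.57 (SE 0.57). The difference did not pass the test across all genes (limma, FDR 0.176), nor an exact two-sided permutation test of the 6 mice (p = 0.2, where 0.1 is the smallest p that 3 against 3 can give). It was larger without WT5 (log2 fold change -2.12, FDR 0.13) and smaller without WT7 (-1.10, FDR 0.4), and it passed only without KO6 (-1.89, FDR 0.093) and with mice weighted by limma's arrayWeights (-1.56, FDR 0.033). In hippocampal tissue, fewer ciliated cells and less RNA per ciliated cell cannot be told apart, here and for every member below.

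Most members shared this pattern by mouse. The log2 fold change was negative for 72 of the 75, and its median was -0.99, beside -0.019 over all genes. No member passed an FDR under 0.1 with a fold change above 1.3 in the limma test, while 0.663% of all genes passed it as lower and 0.553% as higher in Phf21bΔ4/Δ4. The lowest FDR was 0.103, for Cfap57. At an unadjusted p under 0.05, 37 of the 75 were lower and 0 higher in Phf21bΔ4/Δ4, beside 12.0% and 11.6% of all genes. In 27 members every Phf21bΔ4/Δ4 mouse was below every Phf21b+/+ mouse, and in 0 every one was above, beside 16.0% and 15.0% of all genes.

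**Figure D1:**
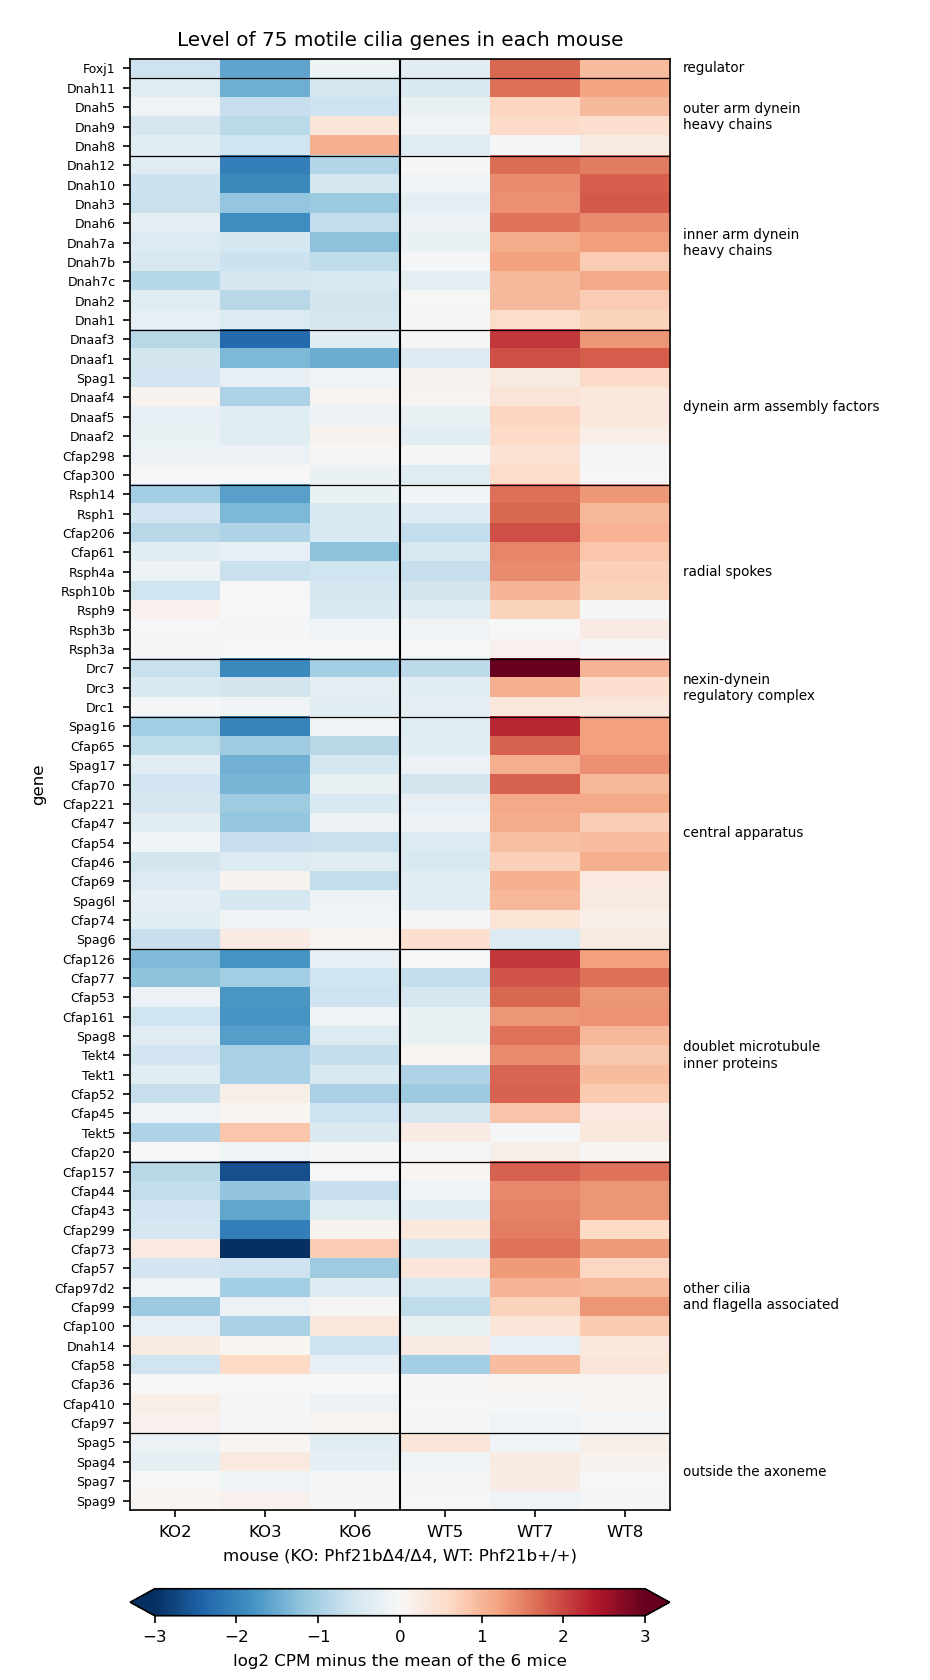
Heat map of the 75 members (rows, ordered by role and then by fold change) in the 6 mice (columns). Color is log2 CPM minus the mean of the 6 mice, cut at -3 and 3. WT7 and WT8 are above the mean in nearly all rows, WT5 is close to the Phf21bΔ4/Δ4 columns, and the rows outside the axoneme are nearly even.

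Members differed widely between mice of the same genotype. The median deviation of the members from the mean of the 6 mice, on the log2 scale, was -0.37, -0.67 and -0.36 in KO2, KO3 and KO6 and -0.21, 1.06 and 0.78 in WT5, WT7 and WT8. WT7 was the highest mouse for 52 members and WT8 for 15, and KO3 was the lowest for 42. WT5 lay within the range of the Phf21bΔ4/Δ4 mice for 39 members, above it for 31 and below it for 5. Relative to the Phf21bΔ4/Δ4 mean, the median member was at 1.16 times in WT5, at 2.54 times in WT8 and at 2.92 times in WT7. The summed CPM of the members without Spag9, which alone was at between 503 and 594 CPM, was 647, 568 and 647 in KO2, KO3 and KO6 and 664, 1333 and 1096 in WT5, WT7 and WT8.

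The number of members called turned on single mice. Without KO6, 21 members were called lower (9.29% of all genes were), and without WT5, 3 were (0.159% of all genes): Cfap44 (log2 fold change -2.26, FDR 0.0587), Cfap65 (-2.38, FDR 0.0644) and Dnah3 (-2.58, FDR 0.0711). None was called without KO2, KO3, WT7 or WT8. With these weights, which were 0.343 for KO6 and 4.63 for WT8, 47 members were called lower (14.3% of all genes), among them all 21 called without KO6. With each mouse centred on its own median, Cfap57 alone was called lower (-1.47, FDR 0.0939, beside 0.649% of all genes). When both WT7 and WT8 were left out, which was chosen after seeing their values, none was called, the median log2 fold change of the members was -0.32, and that of Foxj1 was -0.48 (FDR 0.945).

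The authors' filter on low values bears on these counts. On the deposited values 14454 of the 14477 genes had 1 CPM or more in 2 or more mice, and 14 of the 75 members (18.7%) reached that level only through the Phf21b+/+ mice, as did 3.61% of all genes. These 14, Cfap126, Cfap157, Cfap221, Cfap299, Cfap53, Cfap73, Cfap77, Cfap97d2, Cfap99, Dnaaf1, Dnaaf3, Dnah8, Rsph14 and Tekt4, may be in the table because of the Phf21b+/+ mice, so the counts over all 75 give no independent support to a direction. Among the 57 members with a mean CPM of at least 2, the median log2 fold change was -0.95, 55 were negative and 20 (35.1%) had every Phf21bΔ4/Δ4 mouse below every Phf21b+/+ mouse. At that mean level 15.6% of 13114 genes did so. The mean includes the Phf21b+/+ mice, so this division does not remove the effect of the filter: Cfap126, with a mean of 0.926 CPM in Phf21bΔ4/Δ4 and 4.66 CPM in Phf21b+/+ mice, is still among the 57. The annotation (GENCODE M21) held 7 further protein-coding symbols that fit the rule, Cfap97d1, Dnah17, Rsph6a, Spag11a, Spag11b, Tekt2 and Tekt3, which were not among the listed genes.

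**Figure D2:**
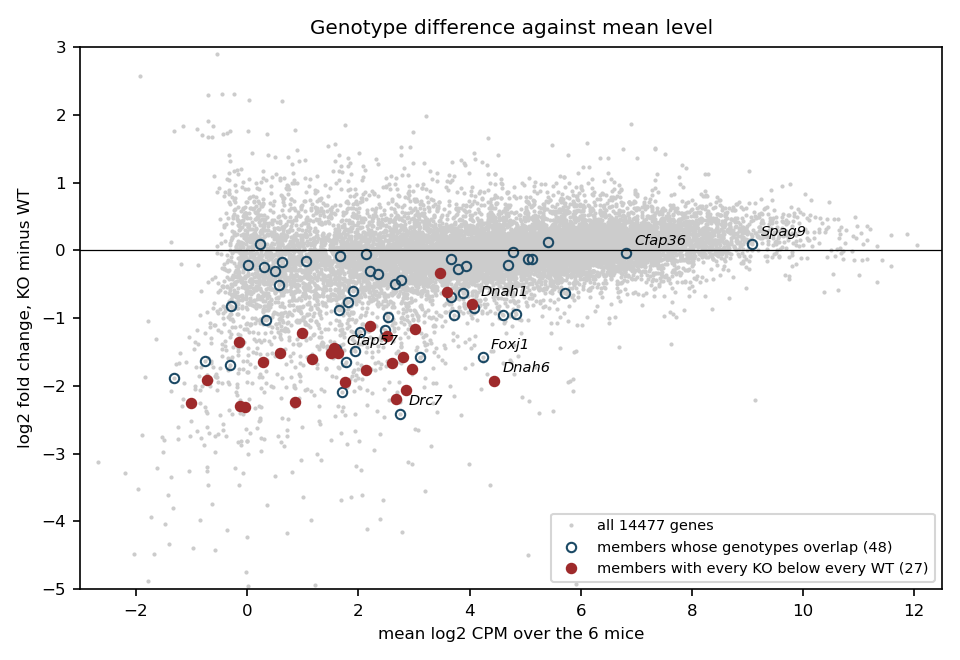
Log2 fold change (Phf21bΔ4/Δ4 minus Phf21b+/+) of each gene against its mean log2 CPM over the 6 mice. Grey points are all genes, of which 30 lie outside the axes, filled red points are the 27 members with every KO mouse below every WT mouse, and open blue points are the other 48. Nearly all members lie below 0, and the highest expressed, Spag9 and Cfap36, lie near it.

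Dynein heavy chains are the motors of the axoneme. The members held 9 heavy chains of the inner arms, Dnah1, Dnah2, Dnah3, Dnah6, Dnah7a, Dnah7b, Dnah7c, Dnah10 and Dnah12. Arms were assigned from general knowledge after values were seen, so the counts of these 9 are not an independent result. Dnah14, which was given no arm, overlapped between genotypes (log2 fold change -0.21). All 9 inner arm chains were lower in every Phf21bΔ4/Δ4 mouse than in every Phf21b+/+ mouse, WT5 included, beside 16.0% of all genes. All 9 also had an unadjusted p under 0.05 as lower, beside 12.0% of all genes. Their log2 fold changes ran from -2.20 (Dnah12) to -0.80 (Dnah1), with a median of -1.44, and their FDR was 0.133 or more. Dnah12 was at 4.98, 1.53 and 3.44 CPM in KO2, KO3 and KO6 and at 6.55, 20.4 and 18.9 CPM in WT5, WT7 and WT8 (FDR 0.139). Dnah10 was at 4.64, 1.91 and 5.01 CPM in KO2, KO3 and KO6 and at 6.74, 19.2 and 25.2 CPM in WT5, WT7 and WT8 (log2 fold change -2.07, SE 0.57, FDR 0.145). In both genes WT5 stood nearer to the highest Phf21bΔ4/Δ4 mouse than to WT7 or WT8. Dnah6, the inner arm chain with the highest level per kilobase of exon (2.29 CPM per kb), was at 17.8, 6.01 and 12.97 CPM in KO2, KO3 and KO6 and at 19.3, 67.4 and 58.4 CPM in WT5, WT7 and WT8. Dnah1 was at 13.9, 12.4 and 11.5 CPM in KO2, KO3 and KO6 and at 16.3, 24.2 and 26.6 CPM in WT5, WT7 and WT8 (SE 0.20, FDR 0.133). Its SE was the smallest among the inner arm chains. Dnah7a, Dnah7b and Dnah7c are near-identical copies, among which reads may be divided, and are not independent.

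**Figure D3:**
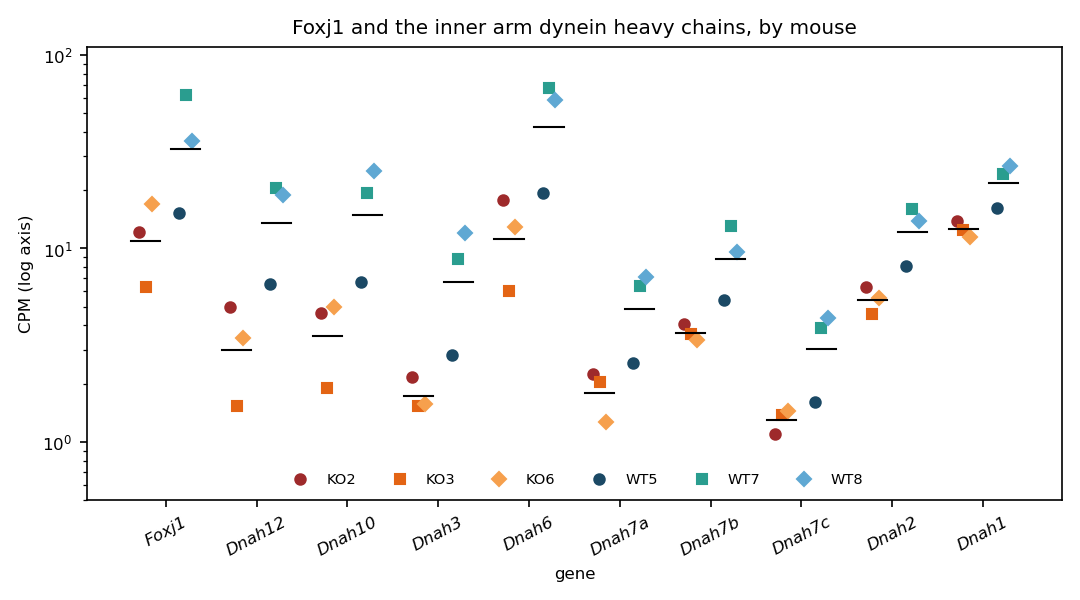
CPM (log axis) of Foxj1 and the 9 inner arm dynein heavy chains in each mouse. Points are mice, with KO on the left and WT on the right of each gene, and bars are the mean of log2 CPM per genotype. For Foxj1 WT5 lies within the KO points, and for the inner arm chains it lies above them but below WT7 and WT8.

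The outer arm heavy chains overlapped between genotypes in all 4 cases. Dnah9 was at 37.6, 30.01 and 68.1 CPM in KO2, KO3 and KO6 and at 48.2, 78.6 and 75.6 CPM in WT5, WT7 and WT8, with a log2 fold change of -0.63 (SE 0.33, FDR 0.278). KO6 was close to WT7 and WT8 for this gene, in contrast to the inner arm chains. Dnah5, mutated in a common form of primary ciliary dyskinesia, was at 26.6, 17.4 and 18.6 CPM in KO2, KO3 and KO6 and at 24.4, 44.4 and 56.0 CPM in WT5, WT7 and WT8 (log2 fold change -0.94, SE 0.32, FDR 0.168). Dnah11 had a log2 fold change of -1.57 (FDR 0.179). Dnah8 had one of 0.09 (FDR 0.92), whose sign changed with the settings, and was at 2.44 CPM in KO6 and between 0.767 and 1.40 CPM in the others. Whether inner and outer arm genes differed from each other was not tested. Dnah14, whose arm was not assigned, was between 0.657 and 1.26 CPM in all mice (log2 fold change -0.21).

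Assembly factors fold and carry dynein arms in the cytoplasm before they enter the cilium. The 8 such members had a median log2 fold change of -0.51, and 3 of them, Dnaaf1, Dnaaf3 and Spag1, had every Phf21bΔ4/Δ4 mouse below every Phf21b+/+ mouse (37.5%, beside 16.0% of all genes). Dnaaf1 and Dnaaf3 reached 1 CPM in 2 mice only through Phf21b+/+. Dnaaf3 was at 0.553, 0.195 and 0.787 CPM in KO2, KO3 and KO6 and at 1.001, 4.22 and 2.43 CPM in WT5, WT7 and WT8 (log2 fold change -2.31, SE 0.71, FDR 0.155). Dnaaf1 was low in all mice, from 0.178 to 1.90 CPM. Dnaaf5 was at 5.32, 4.96 and 5.70 CPM in KO2, KO3 and KO6 and at 5.46, 9.92 and 7.87 CPM in WT5, WT7 and WT8 (log2 fold change -0.50, FDR 0.235), and Dnaaf4 had a log2 fold change of -0.51 (FDR 0.388). Cfap298, whose promoter with facing motifs is shown above, differed little between mice, from 22.9 CPM in KO2 and KO3 to 34.8 CPM in WT7 (log2 fold change -0.21, FDR 0.405). Over 20% of the exon length of Cfap298, Dnaaf1 and Dnaaf2 is shared with other genes, and the strand setting of the counting is not given in the sources used here, so their reads may be partly those of neighbours.

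Radial spokes pass signals from the central pair to the dynein arms. Of the 9 members in spokes, Rsph1 and Rsph14 did not overlap between genotypes (22.2%, near the 16.0% of all genes, and Rsph14 reached 1 CPM in 2 mice only through Phf21b+/+), and the median log2 fold change was -0.95. Rsph1 was at 4.73, 2.77 and 5.14 CPM in KO2, KO3 and KO6 and at 5.37, 23.3 and 14.03 CPM in WT5, WT7 and WT8 (log2 fold change -1.57, SE 0.54, FDR 0.168). Rsph4a was at 11.8, 8.24 and 8.62 CPM in KO2, KO3 and KO6 and at 8.07, 34.9 and 21.6 CPM in WT5, WT7 and WT8 (log2 fold change -0.95, FDR 0.284). WT5 was thus the lowest of the 6 mice for Rsph4a. Rsph9 had a log2 fold change of -0.24 (FDR 0.611), whose sign changed with the settings. Rsph3a and Rsph3b, near-identical copies among which reads may be divided, differed by -0.06 and -0.08 on the log2 scale.

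The nexin-dynein regulatory complex links neighbouring doublets. Drc7 had the largest log2 fold change of all members, -2.41 (SE 0.98, FDR 0.203). It was at 4.26, 1.77 and 3.35 CPM in KO2, KO3 and KO6 and at 3.94, 70.5 and 13.6 CPM in WT5, WT7 and WT8. WT7 alone was 5.17 times WT8, the highest such ratio among members, and WT5 lay within the Phf21bΔ4/Δ4 range. Drc3 was at 12.3, 11.5 and 13.97 CPM in KO2, KO3 and KO6 and at 13.6, 36.1 and 23.96 CPM in WT5, WT7 and WT8 (log2 fold change -0.85, FDR 0.192). Drc1, the scaffold of the complex, had a log2 fold change of -0.28 (FDR 0.383). None of the 3 separated the genotypes.

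The central apparatus, the central pair with its projections, was represented by 12 members with a median log2 fold change of -1.04, of which Cfap47, Cfap65, Cfap74, Cfap221 and Spag17 (41.7%) separated the genotypes, beside 16.0% of all genes. Spag16 was at 1.61, 0.814 and 3.05 CPM in KO2, KO3 and KO6 and at 2.57, 15.8 and 7.69 CPM in WT5, WT7 and WT8 (log2 fold change -2.10, SE 0.74, FDR 0.173). KO6 was above WT5 in this gene. Cfap65 was at 2.62, 2.10 and 2.48 CPM in KO2, KO3 and KO6 and at 3.52, 14.9 and 10.3 CPM in WT5, WT7 and WT8 (log2 fold change -1.77, FDR 0.148). Spag6l, at a log2 fold change of -0.63 (FDR 0.265), and Spag6, at -0.24 (FDR 0.717), are near-identical copies among which reads may be divided, and Spag6 was the only member of the central apparatus with WT5 as the highest mouse, at 1.76 CPM.

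Proteins inside the doublet wall, which include the tektins, had a median log2 fold change of -1.52 over 11 members, of which Cfap126, Spag8 and Tekt4 (27.3%) separated the genotypes, beside 16.0% of all genes. Cfap126 and Tekt4 are among those that reached 1 CPM in 2 mice only through Phf21b+/+. Cfap126 was at 0.721, 0.528 and 1.53 CPM in KO2, KO3 and KO6 and at 1.81, 7.90 and 4.27 CPM in WT5, WT7 and WT8 (log2 fold change -2.24, SE 0.62, FDR 0.145). Tekt4 was at 1.02, 0.767 and 0.918 CPM in KO2, KO3 and KO6 and at 1.57, 4.01 and 2.66 CPM in WT5, WT7 and WT8 (log2 fold change -1.52, SE 0.38, FDR 0.135). These are levels of few reads, at which WT5 was above the Phf21bΔ4/Δ4 mice by under 1 CPM. Tekt1 was at 4.43, 2.86 and 4.05 CPM in KO2, KO3 and KO6 and at 2.95, 18.7 and 10.8 CPM in WT5, WT7 and WT8 (log2 fold change -1.18, FDR 0.293). Tekt5 was highest in KO3, at 9.20 CPM, and between 2.704 and 6.39 CPM in the other mice (log2 fold change -0.35, FDR 0.624). Cfap20 lay between 30.6 and 37.4 CPM in all mice (log2 fold change -0.13, FDR 0.379).

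The other 14 Cfap and Dnah members had a median log2 fold change of -0.93. Cfap57 (chr4:118554551-118620777, GRCm38) was at 2.07, 2.005 and 1.48 CPM in KO2, KO3 and KO6 and at 3.99, 7.56 and 4.77 CPM in WT5, WT7 and WT8 (log2 fold change -1.52, SE 0.29). Here WT5 was close to WT8 and well above the Phf21bΔ4/Δ4 mice, unlike in most members. Cfap44 was at 4.64, 3.43 and 4.83 CPM in KO2, KO3 and KO6 and at 7.07, 21.1 and 19.6 CPM in WT5, WT7 and WT8 (log2 fold change -1.75, SE 0.42, FDR 0.133). Cfap43, Cfap157 and Cfap299 also separated the genotypes, which makes 5 of the 14 (35.7%) beside 16.0% of all genes. Cfap73 and Cfap157 had 1 and 3 reads in KO3, so their values there carry large counting error.

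Several members had log2 fold changes near 0, inside and outside the axoneme. Spag4, Spag5, Spag7 and Spag9, which share the prefix of sperm-associated antigens but act outside the axoneme, had a median log2 fold change of -0.14, and none had an unadjusted p under 0.05. Spag9, a scaffold of JNK signaling and motor proteins and the member with the highest level per kilobase of exon (48.7 CPM per kb), was at 568, 594 and 527 CPM in KO2, KO3 and KO6 and at 544, 503 and 536 CPM in WT5, WT7 and WT8 (log2 fold change 0.09, SE 0.09, FDR 0.517). Cfap36, next in that order at 40.8 CPM per kb, was at 110.3, 110.4 and 110.6 CPM in KO2, KO3 and KO6 and at 107.6, 117 and 116 CPM in WT5, WT7 and WT8 (log2 fold change -0.04, FDR 0.72). Cfap97 had the largest positive log2 fold change of all members, 0.12 (SE 0.08, FDR 0.36), with 46.3, 41.3 and 45.0 CPM in KO2, KO3 and KO6 and 41.5, 38.6 and 41.6 CPM in WT5, WT7 and WT8. Cfap410 was between 24.2 and 31.2 CPM in all mice (log2 fold change -0.03, FDR 0.898) and Spag7 between 31.9 and 40.5 CPM (log2 fold change -0.13, FDR 0.391). The signs for Cfap36, Cfap410 and Spag9 changed with the settings. The median member was at 1.10 CPM per kb, Foxj1 at 9.48 and Dnah8 lowest at 0.0471.

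Motile cilia genes outside the symbol rule, a list of 63 that was written with the results known, followed the members. None was called by limma, 43 had an unadjusted p under 0.05 as lower and 1 as higher (12.0% and 11.6% of all genes), the median log2 fold change was -1.30 and 33 separated the genotypes (16.0% of all genes). The dynein intermediate chains Dnaic1 and Dnaic2 had log2 fold changes of -1.09 (FDR 0.154) and -1.19 (FDR 0.178). Rfx3, a factor that binds the promoter motif shown above, was at 146, 119 and 207 CPM in KO2, KO3 and KO6 and at 264, 261 and 254 CPM in WT5, WT7 and WT8 (log2 fold change -0.76, SE 0.19, FDR 0.135). In contrast to the members, WT5 was level with WT7 and WT8 for Rfx3. Dnal1, a dynein light chain, had the opposite sign (log2 fold change 0.38, FDR 0.167), and Ccdc39, which sets the spacing of parts along the axoneme, had a log2 fold change of -0.50 (FDR 0.196).

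Genes of the primary cilium, 64 in the list, moved in both directions. The log2 fold change was negative for 45 of the 64 (70.3%), beside 52.4% of all genes. Their log2 fold changes ran from -0.71 to 1.36 with a median of -0.14, and 11 had an unadjusted p under 0.05 as lower and 8 as higher (12.0% and 11.6% of all genes). In 16 of the 64 (25.0%) every Phf21bΔ4/Δ4 mouse was below every Phf21b+/+ mouse and in 7 every one was above, beside 16.0% and 15.0% of all genes. WT7 was the highest mouse for 34 of them, and their median deviation from the mean of the 6 mice ran from -0.08 in KO6 to 0.16 in WT7. The only one called was Gpr161, a receptor that restrains hedgehog signaling, which was higher in Phf21bΔ4/Δ4 (0.553% of all genes were called higher). It was at 137, 129 and 124 CPM in KO2, KO3 and KO6 beside 59.0, 41.3 and 53.4 CPM in WT5, WT7 and WT8 (log2 fold change 1.36, SE 0.14, FDR 0.0287). This call was lost without KO2 (FDR 0.12) and without WT8 (FDR 0.148). Gpr161 had been reported as higher by the paper in these same mice, so its call is not an independent result. Kifap3 and Kif3a, subunits of the kinesin of ciliary transport, had log2 fold changes of 0.47 (FDR 0.121) and 0.53 (FDR 0.133), and Ahi1 one of -0.08 (FDR 0.641).

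**Figure D4:**
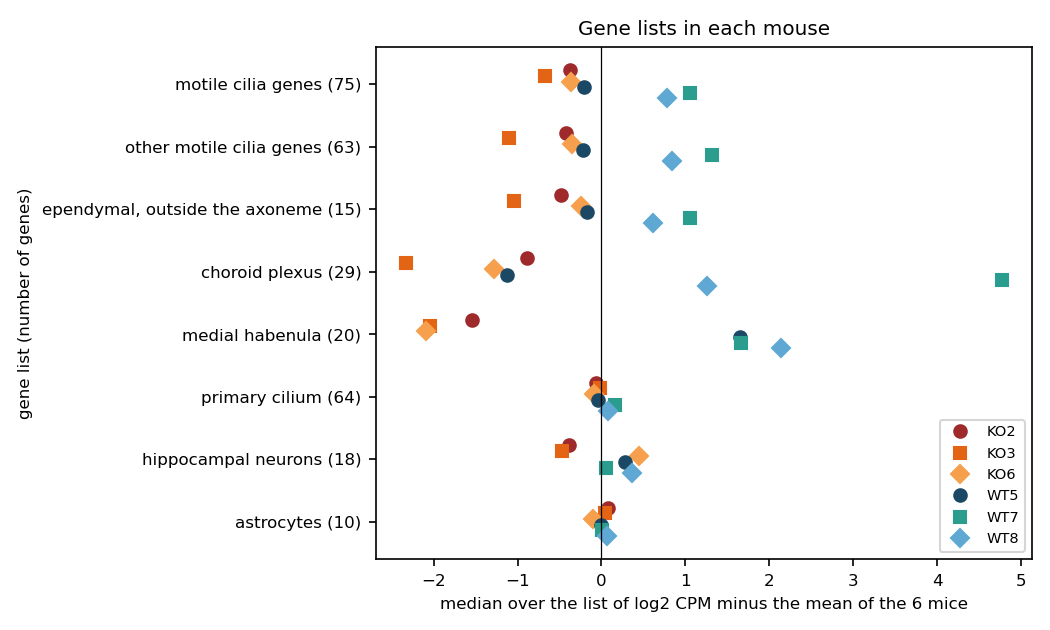
Median over each gene list of log2 CPM minus the mean of the 6 mice (horizontal axis), with 1 point per mouse. WT7 and WT8 stand to the right for motile cilia, ependymal and choroid plexus genes, WT5 joins them for medial habenula genes, and primary cilium and astrocyte genes lie close to 0 in all mice.

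Markers of neighbouring tissues moved with the members, and their part in the result was not tested. Ependymal markers (15 genes, labelled in the figures as outside the axoneme) included no member. Tmem212, Ccdc153 and Fam216b are also in the list of other motile cilia genes, so those lists are not separate. The median deviations of the 15 were -0.48, -1.04 and -0.25 in KO2, KO3 and KO6. They were -0.17, 1.06 and 0.62 in WT5, WT7 and WT8, close to those of the members. Their summed CPM, which Nnat and Aqp4 dominate, ran from 504 to 938 in Phf21bΔ4/Δ4 and from 753 to 942 in Phf21b+/+ mice, and none was at 3 reads or fewer. Of these markers Aqp4, the water channel that astrocytes also express, was called lower (log2 fold change -0.68, SE 0.10, FDR 0.0669), beside 0.663% of all genes. The Aqp4 call was lost without any mouse but KO6, at FDR 0.111 to 0.249. Aqp4 had been reported as lower by the paper in these same mice, so its call is not an independent result. Vim had a log2 fold change of -1.07 (FDR 0.133) and Nnat one of 0.55 (FDR 0.557).

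Choroid plexus markers (29 genes) summed to between 323 and 447 CPM in Phf21bΔ4/Δ4 mice and to 384, 25094 and 1979 CPM in WT5, WT7 and WT8. Ttr, the transthyretin of the choroid plexus, was at 53.2, 8.96 and 2.74 CPM in KO2, KO3 and KO6 and at 2.85, 14542 and 872 CPM in WT5, WT7 and WT8. WT5 was thus as low as KO6, and WT7 far above WT8. Their median log2 fold change was -3.60, and it was -1.95 without WT7 and -4.86 without WT5. Called lower was 1 of the 29, Otx2 (log2 fold change -5.30, SE 0.93, FDR 0.089), beside 0.663% of all genes. The Otx2 call was kept without KO6 (FDR 0.029) and lost without any other mouse (FDR 0.113 to 0.295). Kcne2, Slc4a5, Tmem72, Kcnj13, Wdr86 and Mfrp were at 0 reads in 1 or 2 of the mice KO3, KO6 and WT5, and none of the markers was at 3 reads or fewer in WT7 or WT8. Enpp2 and Kl, the next most abundant by CPM, had log2 fold changes of -2.22 (FDR 0.265) and -1.72 (FDR 0.366). The median ratio of WT7 to WT8 was 10.6 for these markers and 1.15 for the members, with a range of 0.627 (Spag6) to 5.17 (Drc7) among the latter.

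**Figure D5:**
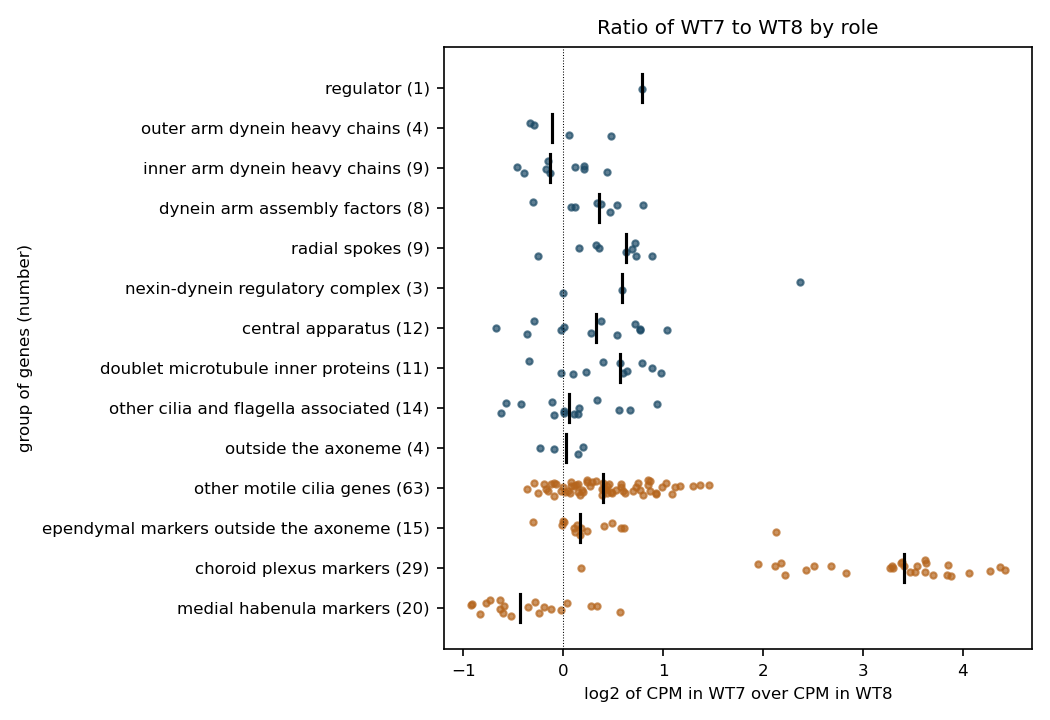
Log2 ratio of CPM in WT7 to CPM in WT8 for each gene (points), with the median of each group as a bar. Members by role are in blue and comparison lists in brown. Most members lie around or above 0, with Drc7 apart at the right of its row, and the choroid plexus markers lie mostly between 2 and 4.5.

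The ratio of WT7 to WT8 also differed among roles as a description. Its median was 0.912 for the inner arm and 0.929 for the outer arm heavy chains, 1.25 for the central apparatus, 1.48 for proteins inside the doublet wall, 1.55 for radial spokes and 1.72 for Foxj1. The heavy chains were thus about as high in WT8 as in WT7, whereas spoke and wall proteins were higher in WT7. Medial habenula markers (20 genes), from a nucleus beside the third ventricle, were lower in Phf21bΔ4/Δ4 mice. Most of these markers, such as Chat, Avil and Spx, had been reported as lower by the paper in these same mice. The list was written with earlier results known, so its separation by genotype, WT5 included, is not an independent result. All 20 separated the genotypes (16.0% of all genes did), and 18 were called lower (0.663% of all genes). Their median deviations were -1.54, -2.05 and -2.10 in KO2, KO3 and KO6 and 1.65, 1.67 and 2.14 in WT5, WT7 and WT8. Without 1 mouse, between 4 (without WT8) and 20 of them were called, with 6 without WT5 or WT7 and 11 without KO3. Their summed CPM was 95.2, 75.2 and 69.0 in KO2, KO3 and KO6 and 428, 453 and 509 in WT5, WT7 and WT8. Lrrc55 (log2 fold change -2.40, FDR 0.0648), Gpr151 (-5.18, FDR 0.00225) and Calb2 (-1.94, FDR 0.131) were the most abundant. WT5, near the Phf21bΔ4/Δ4 mice for most motile cilia members, was thus as high as WT7 for habenula markers.

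Hippocampal markers (18 genes) were all above 3 reads in every mouse. Their median deviations were -0.39, -0.47 and 0.45 in KO2, KO3 and KO6 and 0.28, 0.05 and 0.37 in WT5, WT7 and WT8, so KO2 and KO3 stood apart from KO6. Pdzd2 was called lower (log2 fold change -0.70, FDR 0.0688), and Fibcd1 (1.51, FDR 0.0618) and Mpped1 (1.42, FDR 0.0724) higher. Of all genes, 0.663% were called lower and 0.553% higher. The paper had reported Pdzd2, Fibcd1 and Mpped1 as changed in these same mice, and the list was written with earlier results known. Zbtb20 had a log2 fold change of -0.13 (FDR 0.76). The calls of Pdzd2 and Mpped1 were kept only without KO6, at FDRs of 0.0214 and 0.0147, and ranged from 0.113 to 0.267 for Pdzd2 and from 0.117 to 0.243 for Mpped1 without another mouse, and that of Fibcd1 was also kept without KO2 (FDR 0.0443) but not without KO3 (0.101), WT5 (0.113), WT7 (0.242) or WT8 (0.225). Astrocyte markers, 10 genes led by Slc1a2, Aldoc and Slc1a3 (log2 fold changes 0.24, 0.11 and 0.22), had a median log2 fold change of 0.046. Aqp4 alone was called, as lower, beside 0.663% of all genes. The dissection of the individual mice is not described in the sources used here, and the makeup of the tissue and the genotype cannot be told apart in 3 mice each.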

How the data were processed

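RNA-Seq was analyzed for hippocampi of 3 Phf21bΔ4/Δ4 and 3 Phf21b+/+ mice, assigned by sample label. The authors deposited 1 table of log2 CPM for 14477 genes, made with Trimmomatic 0.39, STAR 2.7.3a on GRCm38, featureCounts of Subread 1.6.4 on GENCODE genes, a filter on low CPM, and edgeR normalization to effective library size. CPM is 2 to the power of the deposited value and includes a prior of 0.1 reads (0.00445 CPM). After this prior was removed, 100% of values came out as whole reads (tolerance 0.1), which gave the depth.

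Phf21bΔ4/Δ4 was compared with Phf21b+/+ on these log2 values by limma 3.58.1 under R 4.3.3 (lmFit, and eBayes with a prior variance that follows the mean), two-sided, without covariates, and FDR is the Benjamini-Hochberg value over the whole table. The thresholds (FDR below 0.1, fold change over 1.3) are those of the paper, whose own count test was not run on log values. P-values cover only the spread between these mice. On simulated data of this size the test called 51 of 100 genes changed 2-fold, 100 of 100 changed 4-fold and 9 others. The simulation gave every gene the same spread beyond counting error and no difference in tissue between mice. It therefore does not show the power of the test for the members. Drc7, for example, had a log2 fold change of -2.41 and was not called (FDR 0.203).

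The members, gene lists, and tests were chosen with earlier results of these data known, and roles were assigned from general knowledge after values were seen. Genes named are Foxj1, the 3 members of each prefix with the highest mean CPM, the 5 largest increases and 5 largest decreases at a mean log2 CPM of at least 0, called members, and in each list the 3 most abundant and up to 10 called. Others named (such as the remaining inner arm chains, Cfap44, Cfap65, Cfap57, Dnaic1 and Dnaic2) were chosen after their values were seen. Positions and exon lengths come from GENCODE M21 on GRCm38, where 72 members were found (not Cfap410, Cfap47, or Dnaaf4). The authors used release M24 of the same build. Alternatives were a constant prior variance, log2(CPM + 1), a mean log2 CPM of at least 1, centring, quantile normalization, arrayWeights, limma voom on the recovered reads, and leaving out each mouse.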

Additional observations from a re-analysis of the deposited data

How the results depend on the processing

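No paired analysis was made, because the sources used here do not say which mice shared a litter or a dissection day. The genotypes share no replicate numbers. With each mouse left out in turn, between 9 and 2830 of all genes were called, and between 0 and 21 members. Between 28 and 60 members (37.3% to 80.0%) and 18.8% to 28.5% of all genes then separated the genotypes, counts that can only stay or grow when a mouse is left out. The median log2 fold change of the members ran from -1.49 to -0.75 and that of Foxj1 from -2.12 to -1.10. Called were between 0 and 22 of the other motile cilia genes, 0 and 10 primary cilium genes, 0 and 4 choroid plexus markers, and 4 and 20 medial habenula markers. All genes called numbered 176 in the limma test used above, which is not the count test of the paper. They numbered 75 with a constant prior variance, 101 when genes below a mean log2 CPM of 1 were left out, and 3549 with arrayWeights. Members called numbered 47 with arrayWeights and 1 with centring, and with quantile normalization 17 separated the genotypes. The choroid plexus median ran from -4.86 (without WT5) to -1.95 (without WT7). With arrayWeights, Foxj1 had a log2 fold change of -1.56, and 49 other motile cilia genes, 13 primary cilium genes, and 14 choroid plexus markers were called; without KO6 Foxj1 was at -1.89. The Otx2 call, the only one among choroid plexus markers, went to 0 with a constant prior variance, log2(CPM + 1), the filter on the mean, and voom. The filter left 8 habenula calls, and log2(CPM + 1) moved their median to -2.43. Voom moved the median of all genes to -0.13 and that of primary cilium genes to -0.25. Without WT7 and WT8 the median of the members was -0.32.

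Signs changed for 6 named members, all with an FDR above 0.3 there. Cfap36 was at 0.0083 with centring; Cfap410 at 0.024 with centring, 0.0093 with quantile normalization, and 0.056 with arrayWeights; Dnah8 at -0.35 with arrayWeights and -0.023 with voom; Rsph9 at 0.040 with arrayWeights; Spag9 at -0.15 with quantile normalization and -0.018 with voom. Without 1 mouse, Cfap410 ran from -0.13 to 0.058, Dnah8 from -0.42 to 0.41, Rsph9 from -0.45 to 0.053, and Tekt5 from -0.86 to 0.025. The cause of these shifts was not tested. Of the other values of named members, 311 kept their direction and side of the threshold and 21 passed it. At 1 to 3 reads (Cfap73 and Cfap157 in KO3), depth limits the value.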
